A study of Mus musculus with 18 samples.

Results

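The response of sorted mouse pancreatic alpha cells to IFNγ was followed in 6 RNA-seq libraries of a series of 18, which holds 6 libraries each of alpha, beta and delta cells. Islets of 12-week-old male C57BL/6JRj mice were cultured for 20 h without cytokine (control) or with IFNγ at 5 ng/mL, then dispersed and sorted. Alpha cells were the Epcam+ cells without CD45, TER119 and CD31 that were low for CD24 and negative for CD71. There were 3 control and 3 IFNγ libraries of alpha cells, selected by their labels and made from 5 ng of RNA each. The cytokine reached intact islets, so the sorted alpha cells had their neighbours around them during the treatment. The question put to these libraries was how alpha cells, the glucagon-producing cells that flank beta cells in the islet, change their transcriptome with IFNγ.

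IFNγ is the type II interferon, made mainly by T cells and natural killer cells. It binds a receptor of Ifngr1 and Ifngr2 chains, which work with the kinases Jak1 and Jak2. Signal transducers activated by these kinases bind GAS elements in DNA, and the interferon regulatory factors (IRFs) made in the first wave act on ISRE elements. The best known targets load peptides on MHC class I molecules, attack intracellular microbes (immunity-related GTPases and guanylate-binding proteins) or restrain T cells. In islets this response is studied because insulitis in type 1 diabetes exposes all endocrine cells to the cytokine.

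The alpha label was borne out by its markers. Gcg, the glucagon gene, stood at 117000, 88900 and 78100 CPM (counts scaled to library size) in control libraries 1, 2 and 3 and at 74600, 89000 and 112000 CPM in IFNγ libraries 1, 2 and 3. Ttr, another gene highly expressed in alpha cells, stood at 3710, 3750 and 4640 CPM in controls and at 1810, 3500 and 2390 CPM with IFNγ. Irx2, an alpha cell transcription factor, stood at 135, 132 and 160 CPM against 151, 142 and 117 CPM. None of the 3 passed the test (adjusted p = 0.984, 0.47 and 0.921), and none of 11 tested alpha identity genes did. The summed level of 10 beta cell genes was 1612 to 11700 CPM in controls and 874 to 4179 CPM with IFNγ. Summed acinar genes lay at 10.57 to 45.47 CPM against 2.932 to 15.74 CPM, and summed immune cell genes at 3.479 to 6.519 CPM against 2.611 to 3.61 CPM. These 3 sums overlapped between the groups. The summed polypeptide and ghrelin cell genes lay at 3269 to 4532 CPM in controls and at 1968 to 3907 CPM with IFNγ. Summed duct cell genes, Spp1 among them, lay at 664.7 to 1144 CPM against 668.7 to 1329 CPM. Both of these overlapped as well, with none of their genes called. The 5 delta cell genes summed to 80.37 to 163.1 CPM against 78.71 to 114.8 CPM. Their median log2 fold change was 1.34, and none was called. When IFNγ 2 was left out, 3 of them were called higher, beside 9.97% of all tested genes. When GC was modelled as well none was, beside 1.09% of all tested genes. Genes of the sort gate, of which 5 were tested, summed to 202.5 to 249 CPM in controls and to 259.6 to 353.8 CPM with IFNγ, without overlap and with none called. Of the defining immune genes Ptprc and Tyrobp were too low to be tested. The part of other cells in the results was not tested. Total expected counts were 8062219 to 8865166 in the controls and 10683076 to 10929016 with IFNγ, so each treated library was deeper than each control. Ribosomal RNA took 12.27% to 28.4% of counts in the controls and 4.999% to 21.79% with IFNγ, and mitochondrially encoded genes 1.802% to 2.895% against 2.196% to 5.724%. The part of depth and of these shares in the results below was not tested, beyond the scaling by library.

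Exposure to IFNγ was followed by a rise of a restricted set of genes and by very few falls. Of 17338 genes tested across the 18 libraries, 163 were higher in alpha cells with IFNγ (0.94%) and 6 were lower (0.0346%) at an adjusted p below 0.05 in edgeR's quasi-likelihood test. All 163 and all 6 showed no overlap between the control and IFNγ libraries, but 1668 genes (9.62%) were without overlap in the upward and 1549 (8.93%) in the downward direction among all genes tested. The rises were large: 157 of the 163 exceeded 1 on the log2 scale, 106 exceeded 2 and 60 exceeded 4, with a median of 2.76 and a minimum of 0.78. In 9 of them the 3 control libraries together held no count, and in 15 they held 1 to 3. By annotation 145 were protein coding. Fold changes below are given on the log2 scale as IFNγ minus control, from that fit, and CPM uses the library totals scaled by TMM. In sorted bulk samples, fewer responding cells and less RNA per cell cannot be told apart.

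The GC content of genes bore on the counts of the 6 libraries in opposite senses, and this divided them otherwise than the treatment did. For each library the median log2 deviation from the gene mean was taken over the 4330 genes of lowest exonic GC (up to 43.6%) and over the 4330 of highest GC (from 53.2%). The low-GC median minus the high-GC median was -0.48, -0.74 and -0.77 in control libraries 1, 2 and 3. It was 1.06 in IFNγ 1 and 0.89 in IFNγ 3, but -0.58 in IFNγ 2. IFNγ 2 thus had the balance of the controls, and its 2 replicates had the opposite one. Across 17318 genes with a GC value, the fold change of IFNγ against control fell with GC content (Spearman's rho -0.68 across genes, which are not independent replicates). Over 4 equal bins of genes by GC its median went from 0.56 in the lowest bin through 0.16 and -0.20 to -0.54 in the highest. When a smooth GC trend was removed from each library as an offset in the model, the balance of the 6 libraries lay between -0.04 and 0.02, rho was -0.02 and the bin medians lay between -0.03 and -0.01. What gave the libraries these trends was not tested.

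**Figure D1:**
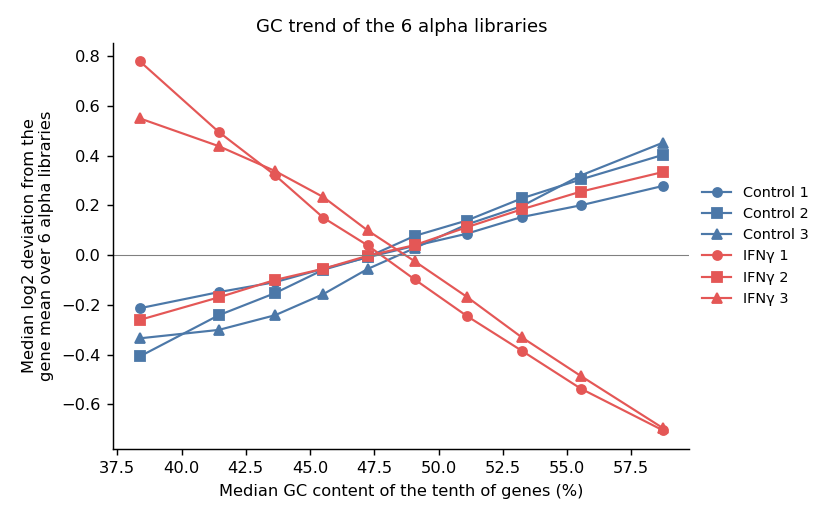
Median log2 deviation of each alpha cell library from the gene mean over the 6 libraries (y axis) against the median exonic GC content of 10 equal bins of genes (x axis, %), with control libraries in blue and IFNγ libraries in red. IFNγ 1 and 3 fall from low to high GC, whereas IFNγ 2 rises with the 3 controls.

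With the GC offsets there were 181 rises (1.04%) and 9 falls (0.0519%). Of the 163 rises 149 were also called with the offsets, whereas only 3 of the 6 falls were. The rises were spread over the 4 GC bins as 51, 55, 36 and 21 genes from low to high GC without the offsets and as 40, 52, 49 and 40 with them. The rank of IFNγ 2 within its group showed the same trend at single genes. Among the 51 rises of the lowest GC bin it was the lowest of the 3 IFNγ libraries for 46 (90.2%), and among the 21 of the highest bin it was the highest for 17 (81%). Over all tested genes those shares were 79.5% and 84.9%, so the responders followed the library trend that other genes had. Gbp6, a guanylate-binding protein of 40.5% GC, rose to 1010 CPM in IFNγ 1, 477 CPM in IFNγ 2 and 915 CPM in IFNγ 3. Uba7, the activating enzyme for ISG15 with 54.5% GC, rose to 67.7, 123 and 58.6 CPM in the same order. Both genes were below these values in every control, with 11.3 to 12.9 CPM and 19.6 to 24.8 CPM.

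**Figure D2:**
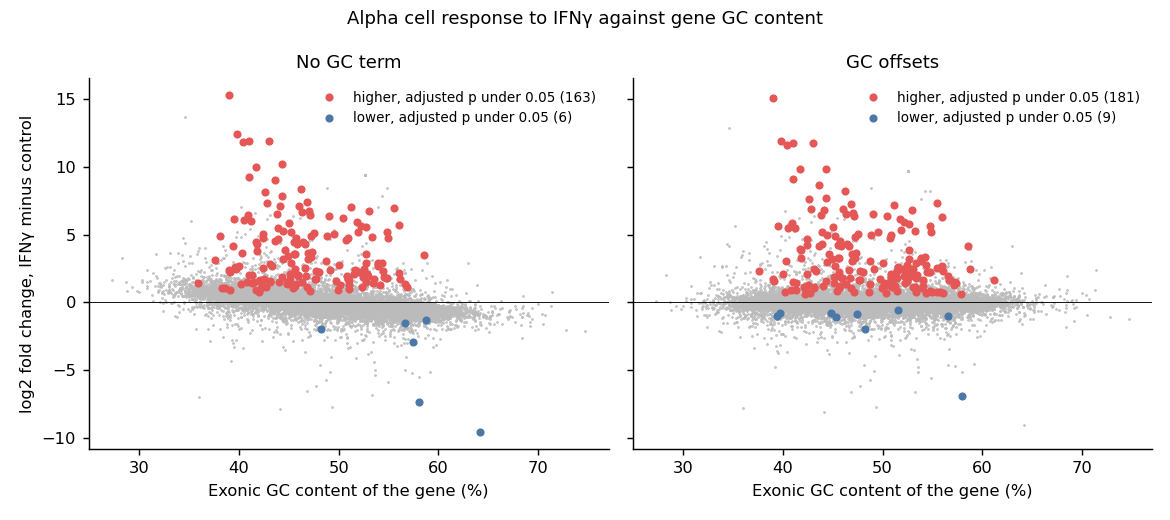
Log2 fold change of each tested gene (y axis, IFNγ minus control) against its exonic GC content (x axis, %), without a GC term (left) and with GC offsets (right), with genes past an adjusted p of 0.05 in red (higher) and blue (lower). The grey cloud slopes down on the left and is level on the right, and the 163 and 181 rises extend above it on both, with the smallest of them inside it.

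At the head of the pathway, the receptor and kinase genes named here did not pass the test. Ifngr1 was at 7.55, 8.7 and 7.69 CPM in controls and at 10.1, 8.22 and 9.86 CPM with IFNγ (fold change 0.24, adjusted p = 0.55). Ifngr2 was at 8.72, 7.63 and 3.85 CPM against 15.2, 8.92 and 6.48 CPM (0.61, adjusted p = 0.31). Jak2 was at 40.4, 38 and 33.9 CPM against 81.7, 48.3 and 69.8 CPM, with no overlap but an adjusted p of 0.0861. Stat2, a transcription factor of type I interferon signalling, rose from 46.6, 35.1 and 55.1 CPM to 159, 204 and 142 CPM (1.88, SE 0.21). It kept the call with GC offsets, at 2.18. The 14 tested receptors, JAKs and STATs had a median of 0.27, beside -0.01 over all tested genes, and none fell.

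Among the interferon regulatory factors 4 of 8 tested rose. Irf1, the early transcription factor that carries the signal on to later targets, stood at 37.8, 34 and 41.5 CPM in controls and at 135, 154 and 129 CPM with IFNγ (1.88, SE 0.22, adjusted p = 2.07e-05, 2.17 with GC offsets). Irf9, the DNA-binding subunit of the type I interferon factor ISGF3, rose from 30.4, 27.7 and 30 CPM to 62.2, 87.3 and 61.1 CPM (1.26, SE 0.18). Irf7, a factor of the type I interferon response, rose from 5.81, 4.28 and 11 CPM to 23.8, 30.5 and 20.4 CPM (1.80, SE 0.37). Each of the 3 was highest in IFNγ 2, and their GC contents lie between 51% and 54.8%. Irf8, better known from myeloid cells, had 1 count in all controls and 82 counts with IFNγ, a ratio of 60.9 with a 95% counting interval of 10.6 to 2440, which covers counting error only. Its level was still low, at 1.64, 2.41 and 3.77 CPM.

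Of 10 genes that restrain JAK-STAT signalling none passed the test without a GC term, and 3 did with the offsets. Socs1, which binds and inhibits the JAK kinases, was at 1.74, 0.937 and 2.89 CPM in controls and at 5.78, 9.22 and 4.64 CPM with IFNγ. Its fold change was 1.79 (adjusted p = 0.128) without the offsets and 2.46 (adjusted p = 0.00577) with them. Usp18, which removes ISG15 and blocks interferon receptor signalling, was at 9.01, 8.03 and 17.4 CPM against 18.9, 38.3 and 29.9 CPM, and its adjusted p went from 0.066 to 0.0497. Ptpn1, a phosphatase of JAK2, was at 135, 114 and 135 CPM against 159, 192 and 100 CPM, so its libraries overlapped before the offsets brought it to 0.74 (adjusted p = 0.0394). Without IFNγ 2 and with the offsets, Socs1 and Ptpn1 were called and Usp18 was not (adjusted p = 0.157).

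Of the 19 tested interferon-inducible GTPases 18 rose, both with and without the GC offsets. Their summed level went from 84.98 to 115.3 CPM in controls to 4210 to 7177 CPM with IFNγ. The median fold change was 6.07, and 5.59 with the offsets. These proteins assemble on the vacuoles of intracellular bacteria and parasites and help to disrupt them. Iigp1, an effector GTPase of the immunity-related (IRG) family, had no count in any control and 372, 350 and 975 CPM with IFNγ. Set against the limit of 3 counts over the control group, its level was at least 4430-fold higher. Tgtp1, another effector of that family, rose from 0.726, 0.401 and 0.321 CPM to 635, 393 and 639 CPM (10.17, SE 0.50). The regulatory members Irgm1, Irgm2 and Igtp, which keep the effectors from host membranes, had measurable control levels and smaller fold changes. Irgm1 went from 14.7, 16.9 and 18 CPM to 309, 324 and 473 CPM (4.48, SE 0.25). Igtp went from 7.85, 8.97 and 10.5 CPM to 188, 310 and 425 CPM (5.08, SE 0.33). Irgm2 went from 24.8, 16.6 and 22.3 CPM to 200, 283 and 313 CPM (3.64, SE 0.25). IFNγ 3 was the highest library for these 3 genes and for Iigp1. Among the guanylate-binding proteins Gbp4 rose from 3.78, 1.2 and 4.27 CPM to 623, 337 and 561 CPM (7.34, SE 0.45), and IFNγ 2 was the lowest of the treated libraries. Tgtp1 and Tgtp2, and several Gbp genes, are near-identical copies, and the annotated loci of Igtp and Irgm2 overlap, so the split of reads among them is uncertain.

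**Figure D3:**
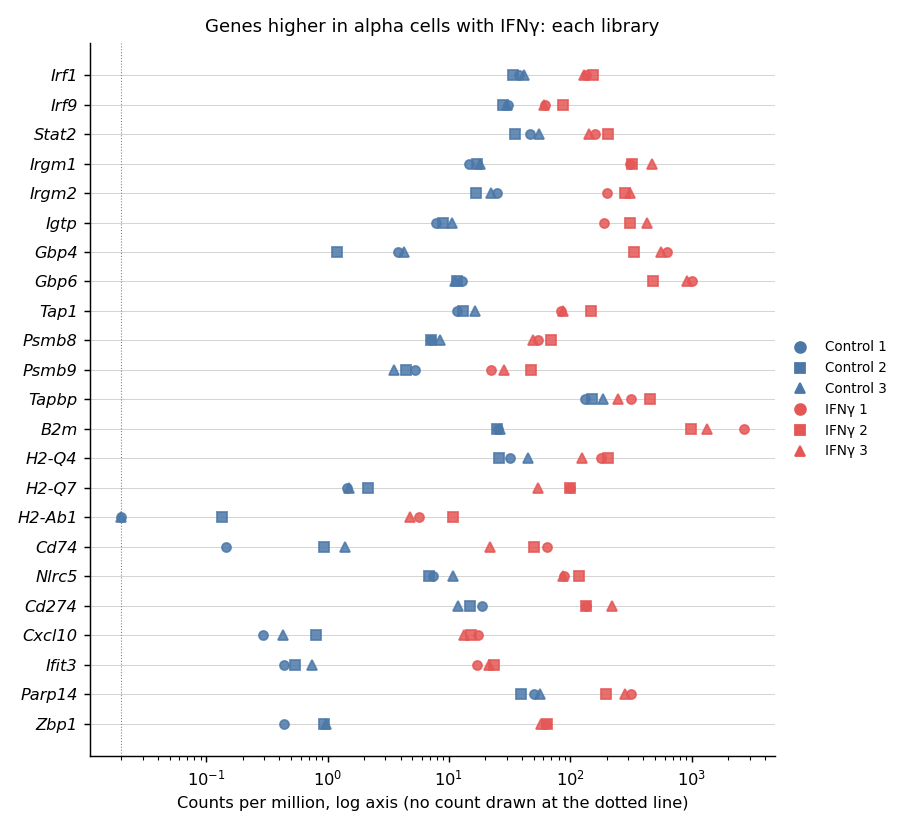
CPM of selected genes higher with IFNγ in each alpha cell library (x axis, log scale, genes on the y axis), with controls in blue, IFNγ in red and a marker shape for each replicate number. The red points lie to the right of all blue points for every gene, and the square of IFNγ 2 is on the low side for Gbp6 and B2m and on the high side for Tap1 and Psmb9.

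The sequence before the start of the genes that rose was examined because the response to IFNγ runs through GAS and ISRE elements. In the RefSeq table of the GRCm38.p6 build, windows of 250 bases before a start were matched by symbol for 118 of the 163 rises. They were searched on both strands for GAS (TTCNNNGAA, which reads the same on either strand in its fixed letters) and ISRE (GAAA, any 2 bases, then GAAA again). The motifs may share bases. In 5 symbols of the whole table a GAS was followed, on the strand of the gene, by an ISRE that began 11 bases further on: Igtp, Irgm2, Tgtp1, Tgtp2 and the predicted gene Gm12185, all on chromosome 11 and all higher with IFNγ. This spacing was noticed after the values were seen. The 5 stretches are shown with the GAS and the ISRE in capitals, each read 5′ to 3′ on the strand of its gene.
Igtp (chr11:58199499-58199543, plus strand): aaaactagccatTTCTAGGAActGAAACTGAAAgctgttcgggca
Irgm2 (chr11:58214890-58214934, plus strand): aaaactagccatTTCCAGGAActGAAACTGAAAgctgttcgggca
Tgtp1 (chr11:48992302-48992346, minus strand): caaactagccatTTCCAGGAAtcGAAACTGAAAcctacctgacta
Tgtp2 (chr11:49064261-49064305, minus strand): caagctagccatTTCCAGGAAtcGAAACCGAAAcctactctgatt
Gm12185 (chr11:48927236-48927280, minus strand): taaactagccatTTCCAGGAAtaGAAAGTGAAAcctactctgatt
Igtp and Irgm2 had 44 of 45 bases in common (97.8%), and the lowest identity of a pair was that of Igtp and Tgtp2 with 32 (71.1%). The motif pair lay within 100 bases of the start in all 5, with the first base of the GAS 45 bases before the start of Igtp and 88 before that of Tgtp1. Their fold changes ranged from 3.64 for Irgm2 to 10.17 for Tgtp1, so stretches this alike stood before genes with very different fold changes. The control means of these 2 genes were 21.26 and 0.48 CPM, the latter near the floor, and the IFNγ means 265.5 and 555.3 CPM. The annotated loci of Igtp and Irgm2 overlap, as do those of Gm12185 and Tgtp1, so reads can be shared.

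Other responders carried the elements singly or in other order, and the examples below show a GAS alone, an ISRE alone and a mixture.
Irf1 (chr11:53769912-53769944, plus strand, GAS): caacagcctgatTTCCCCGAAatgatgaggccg
Irf8 (chr8:120736175-120736225, plus strand, GAS at 2 places): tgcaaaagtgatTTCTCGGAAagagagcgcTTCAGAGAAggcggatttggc
B2m (chr2:122147536-122147569, plus strand, ISRE): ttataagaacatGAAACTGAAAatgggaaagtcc
Cxcl10 (chr5:92349081-92349114, minus strand, ISRE): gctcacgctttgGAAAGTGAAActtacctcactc
Ifit1 (chr19:34640773-34640825, plus strand, ISRE at 2 places on the other strand): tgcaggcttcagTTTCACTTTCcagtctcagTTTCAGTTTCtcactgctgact
Gbp7 (chr3:142530218-142530304, plus strand, GAS at 2 places and an ISRE on the other strand): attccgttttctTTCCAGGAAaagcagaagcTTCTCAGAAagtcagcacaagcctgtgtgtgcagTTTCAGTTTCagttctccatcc
Over the 118 rises with a window, 19 held a GAS (16.1%), 36 an ISRE (30.5%) and 12 both (10.2%). A gene counted if any of its windows matched. Over the 11038 tested genes with a window, counted in the same way, the shares were 7.26%, 3.14% and 0.444%. All 32851 windows of the table, counted singly and not by gene, gave 7.02%, 2.98% and 0.332%. Within 100 bases of the start the shares among the rises were 11% and 19.5%, beside 2.8% and 1.04% of the tested genes. The GTPases had the most, with an ISRE in 10 and a GAS in 6 of 11 genes with a window. The median fold change was 4.47 for rises with a GAS, 3.98 for those with an ISRE and 2.20 for the 75 with neither. A match describes the letters of the window and does not show binding.

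Position on the chromosome was shared by many rises. There were 12 clusters of at least 3 called genes with gaps of no more than 250 kb, and these held 63 of the 163. On chromosome 11, between positions 48861968 and 49135387 (GRCm38), 9 of the 11 tested genes rose, among them Irgm1, Tgtp1, Tgtp2 and Ifi47. Between 58187739 and 58222782 of that chromosome all 3 tested genes did (Gm12250, Igtp and Irgm2). The guanylate-binding proteins formed a cluster of 6 among 7 tested genes on chromosome 5 and of 5 among 6 on chromosome 3. All 6 tested genes of the Iigp1 cluster on chromosome 18 rose, and 4 of 4 in the cluster of Parp14, Parp9 and Dtx3l on chromosome 16. In the MHC on chromosome 17, by contrast, 9 of 28 tested genes rose between Tapbp and H2-Eb1 and 6 of 11 between H2-D1 and H2-Q10. Clustered members can share reads as well as position.

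Members of each step of MHC class I presentation rose, from the chains to the machinery that makes and loads the peptides. Of 15 tested class I chains 9 rose, and their summed level was 501.1 to 645.8 CPM in controls and 2734 to 4337 CPM with IFNγ. B2m, the light chain that every class I molecule needs, stood at 25.6, 24.8 and 26.2 CPM in controls and at 2680, 992 and 1340 CPM with IFNγ (6.03, SE 0.44, 5.46 with GC offsets). H2-K1, a classical heavy chain, went from 182, 202 and 242 CPM to 630, 999 and 544 CPM (1.80, SE 0.24, 2.21 with the offsets). The light chain thus rose by more than the heavy chain, and the gap between them narrowed with the offsets. Per length, in TPM, B2m went from 21.82 ± 3.62 to 1176 ± 494 (SD, n = 3) and H2-K1 from 166.8 ± 42.1 to 498.8 ± 332. In control cells B2m was thus the lower of these chains on the TPM scale, and with IFNγ it was the higher on average. H2-D1, the other classical chain, rose from 127, 145 and 149 CPM to 375, 713 and 326 CPM (1.75, SE 0.28). Among the non-classical chains H2-Q7 rose from 1.45, 2.14 and 1.5 CPM to 99.9, 99.2 and 54.7 CPM (5.63, SE 0.41) and H2-Q4 from 32, 25.8 and 44.6 CPM to 179, 206 and 125 CPM (2.31, SE 0.23). Class I chains are similar in sequence, so reads can be shared among them.

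Of 9 peptide loading genes 4 rose without the GC offsets and 6 with them. Nlrc5, the transactivator of class I genes, went from 7.41, 6.82 and 10.8 CPM to 89.2, 119 and 87.6 CPM (3.55, SE 0.38). Tap1, a subunit of the peptide transporter of the endoplasmic reticulum, went from 11.6, 13.1 and 16.4 CPM to 83.1, 147 and 86.7 CPM (2.94, SE 0.28). Tapbp, the tapasin gene, which bridges the transporter and class I molecules, went from 133, 151 and 185 CPM to 315, 450 and 248 CPM (1.11, SE 0.25, 1.68 with the offsets). IFNγ 2 was the highest library for each of the 3. Tap2, the other transporter subunit, was at 20.6, 15.3 and 31.2 CPM in controls and at 28.6, 59.4 and 27.4 CPM with IFNγ. Its libraries overlapped and it did not pass without the offsets (0.78, adjusted p = 0.231), but it did with them (1.31, adjusted p = 0.00795). Erap1, which trims peptides and has only 40.2% GC, moved the other way between the fits, from 1.37 to 0.77, and was called in both.

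The proteasome showed a division by subunit type. Of the 5 inducible subunits 3 rose, and 4 with the GC offsets, at a median of 1.37 and 1.95. None of the 10 constitutive subunits passed in either fit, at medians of 0.18 and -0.06. Psmb8 and Psmb9 are catalytic subunits of the immunoproteasome. Psmb8 went from 7.12, 7.09 and 8.44 CPM to 53.8, 69.6 and 49.1 CPM (2.92, SE 0.30), and Psmb9 from 5.23, 4.42 and 3.53 CPM to 22.4, 47.4 and 28.7 CPM (2.91, SE 0.38). Psme1, a subunit of the proteasome activator, went from 54, 47.6 and 39.2 CPM to 96.2, 140 and 126 CPM (1.36, SE 0.28). Psmb10, the remaining inducible catalytic subunit, was at 16.1, 14.9 and 20.2 CPM against 25.8, 61.7 and 29.8 CPM. It did not overlap between groups but passed only with the offsets (1.19, adjusted p = 0.118, against 1.68, adjusted p = 0.000114). The difference between the lists was not tested.

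MHC class II genes appeared at low levels. Of 7 tested members 5 rose, and 6 with the GC offsets, and the summed level went from 3.487 to 7.909 CPM in controls to 59.57 to 103.9 CPM with IFNγ. Cd74, the invariant chain that guides class II molecules, stood at 0.145, 0.937 and 1.39 CPM in controls and at 64.8, 50.4 and 22 CPM with IFNγ (5.70, SE 0.49). H2-Aa, a class II chain, went from 0, 0.401 and 0.107 CPM to 19.3, 15.3 and 14.3 CPM, and H2-Ab1, its partner, from 1 count over the controls to 223 with IFNγ. Ciita, the master transactivator of class II genes, was the member that entered with the offsets. Its level was 0.726, 1.87 and 1.39 CPM in controls and 5.35, 5.11 and 6.96 CPM with IFNγ, its libraries did not overlap, and its fold change was 2.10 (adjusted p = 0.066) without and 2.48 (adjusted p = 0.0146) with the offsets. Class II genes are typical of antigen-presenting leukocytes. The summed immune cell markers overlapped between the groups, as given above, with only 2 of them tested and a median of -0.63 without and -0.08 with the offsets. Cd68, a macrophage gene, was at 1.16, 1.61 and 1.18 CPM against 0.776, 1 and 0.58 CPM. The part of leukocyte RNA in the class II values was not tested.

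Antiviral effectors rose in 14 of 27 tested members without and 18 with the GC offsets, at medians of 2.20 and 2.31. Oasl2, of the oligoadenylate synthetase family, went from 3.05, 2.27 and 6.09 CPM to 70.5, 76.8 and 80.4 CPM (4.29, SE 0.37). Ifit3, of the family that binds foreign RNA, went from 0.436, 0.535 and 0.748 CPM to 16.9, 23.5 and 21.2 CPM (5.09, SE 0.46), though its near-identical copy Ifit3b can share its reads. Rtp4, an interferon-induced gene that restrains flaviviruses, went from 2.03, 1.07 and 1.82 CPM to 52.6, 37.1 and 59 CPM (4.90, SE 0.28). The 3 IFNγ libraries lay close to each other for Oasl2 and further apart for Ifit3 and Rtp4. The GC contents of Oasl2, Ifit3 and Rtp4 were 46.6%, 47.5% and 48.8%. Oas1b, Oas3, Ifi27 and Ifi35 were those called only with the offsets. Of 9 nucleic acid sensors 5 rose, and 6 with the offsets, where the RNA-editing enzyme Adar was added. Zbp1, a sensor of Z-form nucleic acid that can start necroptosis, had the largest change of them, from 0.436, 0.937 and 0.962 CPM to 63.4, 64.8 and 57.5 CPM (6.26, SE 0.37). Ifih1, the MDA5 sensor of long double-stranded RNA, was already at 115, 105 and 110 CPM in controls and reached 253, 254 and 387 CPM (1.44, SE 0.22, 0.95 with the offsets).

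The PARP genes induced by interferon rose together with their partner Dtx3l in 5 of 7 tested members, and 6 with the GC offsets. Parp14, an ADP-ribosyltransferase, went from 50.3, 39.6 and 56.2 CPM to 314, 196 and 283 CPM (2.44, SE 0.21). Parp9 went from 19.5, 20.6 and 20.9 CPM to 93.8, 82.8 and 111 CPM (2.23, SE 0.20), and Dtx3l, the ubiquitin ligase that pairs with Parp9, from 48.1, 37.2 and 35.2 CPM to 137, 134 and 202 CPM (1.98, SE 0.23). Parp10 was the added member. It was at 17.4, 24.6 and 25.8 CPM against 33.5, 68 and 33.2 CPM, without overlap, and went from 0.99 (adjusted p = 0.153) to 1.54 (adjusted p = 5.81e-05). In ISG15 conjugation 3 of 5 members rose, and 4 with the offsets. Isg15 itself stayed low, at 0.291, 0.268 and 1.18 CPM against 1.03, 2.31 and 0.967 CPM, and did not pass (adjusted p = 0.285), while Uba7 and Ube2l6, the activating and conjugating enzymes, did.

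Genes that restrain immune cells rose in 4 of 10 tested members. Cd274, the gene of the T cell inhibitor PD-L1, stood at 18.9, 14.9 and 11.8 CPM in controls and at 134, 135 and 220 CPM with IFNγ (3.43, SE 0.30, 3.18 with GC offsets). Il18bp, a secreted decoy for IL-18, went from 30.5, 28.5 and 26.5 CPM to 150, 131 and 162 CPM (2.37, SE 0.23). Serpinb9, an inhibitor of granzyme B, went from 25.7, 17.3 and 19.7 CPM to 69, 44.7 and 67.8 CPM (1.54, SE 0.26). In each of these the lowest treated library was above the highest control. Among signals that draw or activate immune cells, 2 of 9 tested chemokine, cytokine and adhesion genes were called, and the other 9 of that list were too low to be tested. Cxcl10, a chemokine for activated T cells, went from 0.291, 0.803 and 0.427 CPM to 17.3, 15.2 and 13.2 CPM (4.88, SE 0.60). Csf1, the macrophage colony-stimulating factor, went from 10.3, 11.8 and 10.5 CPM to 45.1, 23 and 26 CPM (1.53, SE 0.26).

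Of 24 tested cell death genes 5 rose. Tnfsf10, which encodes the death ligand TRAIL, went from 5.67, 2.68 and 3.95 CPM to 115, 63 and 110 CPM (4.55, SE 0.29). Mlkl, the executor of necroptosis, went from 5.96, 4.42 and 8.44 CPM to 36.8, 25.9 and 33.9 CPM (2.35, SE 0.29), and Xaf1, an antagonist of the caspase inhibitor XIAP, from 4.07, 2.68 and 4.17 CPM to 35.3, 30.5 and 34.7 CPM (3.19, SE 0.23). None of 16 NF-kB and oxidant defence genes was called, and Nos2, the inducible nitric oxide synthase, was one of them, with no count in the controls and 9.23, 0.401 and 0.29 CPM with IFNγ. Nearly all of its signal came from 1 library. Complement genes rose in 3 of 11 tested members. Serping1, the C1 inhibitor, went from 399, 299 and 302 CPM to 931, 1050 and 786 CPM (1.47, SE 0.25), and C1ra, a protease of the C1 complex, from 2.03, 1.34 and 1.18 CPM to 76.9, 26.9 and 17.8 CPM (4.75, SE 0.54). Nampt, the rate-limiting enzyme of NAD salvage, went from 32.5, 40.4 and 34.2 CPM to 145, 82.2 and 197 CPM (1.99, SE 0.30, 1.43 with the offsets).

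Genes listed for the endocrine work of alpha cells gave no calls without GC offsets. This is near the background of 0.94% higher and 0.0346% lower for lists of this size. None passed in either direction, with or without GC offsets, among 15 tested genes of granule cargo and prohormone processing, 13 of exocytosis, 17 ion channels, 11 islet transcription factors, 11 alpha identity genes and 14 of the unfolded protein response. Their medians without the offsets lay between -0.24 and 0.19 and with them between -0.03 and 0.15. Kcnb2, a potassium channel gene outside these lists, was called lower with the offsets only (-0.785, adjusted p = 0.0469), and its libraries overlapped. Other lists lay lower. The 15 tested receptors acting on alpha cells had medians of -0.46 without and -0.22 with the offsets, and 11 type 1 diabetes autoantigens -0.52 and -0.46. None of these was called. The 10 beta cell genes lay lower still, at -0.87 and -0.99, with every change below 0 without the offsets and none called. The part of beta cell RNA in the autoantigen medians was not tested. The 14 tested amino acid transporters had -0.47 and -0.39, with 1 called lower with the offsets. Pcsk2, the convertase that makes glucagon, was at 3440, 3400 and 2990 CPM against 2390, 3190 and 3010 CPM. Chga, a granule protein of 57.2% GC, was at 2720, 3540 and 2860 CPM in controls and at 1220, 2940 and 1980 CPM with IFNγ. Its fold change was -0.57 without and -0.01 with the offsets, and it passed in neither fit. When IFNγ 2 was left out, 4 granule genes were called lower, and 1 when GC was modelled as well. Over all tested genes 10.9% were lower and 9.97% higher without IFNγ 2, and 0.211% and 1.09% with GC modelled. Without IFNγ 2, ion channels had 5 lower and 2 higher, islet transcription factors 1 lower and 4 higher, and exocytosis genes 1 of each. None of these was called with GC modelled. A p above the threshold does not show that these genes were unaffected, and the median SE over all tested genes was 0.34.

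**Figure D4:**
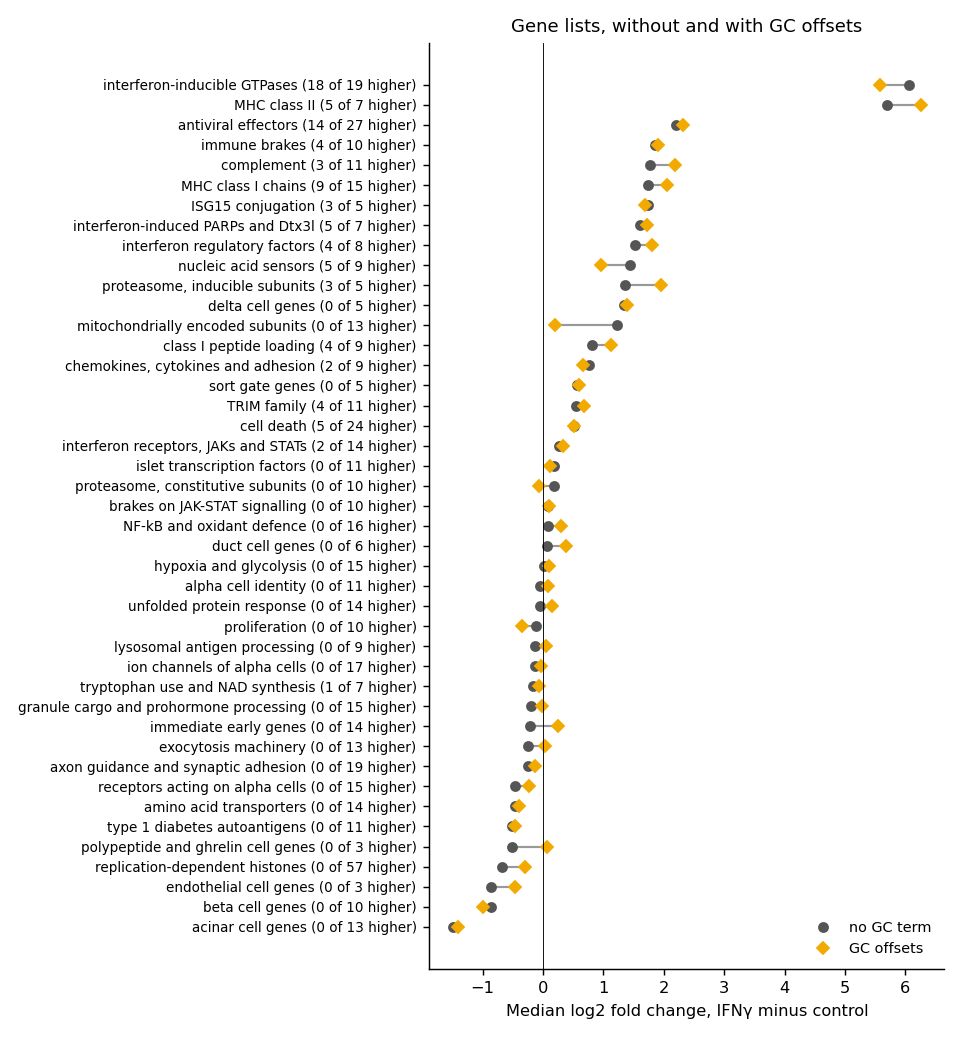
Median log2 fold change (x axis, IFNγ minus control) of each gene list with at least 3 tested members (y axis, with the number of members higher without a GC term), without a GC term (circles) and with GC offsets (diamonds). Most interferon lists lie to the right in both fits. The receptors, JAKs and STATs (0.272 and 0.326) and the brakes on JAK-STAT signalling (0.09 and 0.096) lie further left. The delta cell genes lie to the right as well (1.339 and 1.395). The mitochondrially encoded subunits move from 1.22 to 0.19.

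The offsets moved 2 lists near the ends of the GC range towards 0. The 13 mitochondrially encoded subunits of the respiratory chain, with a median GC of 37.1%, had a median of 1.22 without and 0.19 with the offsets, and none passed in either fit. When IFNγ 2 was left out 11 of them were called higher, beside 9.97% of all tested genes, and with the offsets none was. The 57 tested replication-dependent histones, with a median GC of 56.3%, had a median of -0.68 and -0.29. With all libraries 1 of them fell, 15 fell without IFNγ 2, and 3 fell without IFNγ 2 with the offsets. The shares lower over all tested genes in these fits were 0.0346%, 10.9% and 0.211%.

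Falls were few, and 3 of the 6 lost their call with the GC offsets. Without the offsets the genes called lower were Sdk2, Fbxl7, Recql4, Nme3, Hist2h2aa2 and a second annotated Gcat gene. Sdk2, a synaptic adhesion protein, stood at 98.4, 136 and 96.2 CPM in controls and at 17.2, 57.7 and 42.6 CPM with IFNγ (-1.50, SE 0.33, adjusted p = 0.0264). It was called with the offsets too, at -0.98 (adjusted p = 0.0466). Fbxl7, an F-box protein, went from 2.76, 2.54 and 3.63 CPM to 0.431, 0.702 and 1.16 CPM and was called in both fits. Recql4, a DNA helicase, went from 2.91, 2.41 and 1.92 CPM to 0.345, 0.501 and 0.0967 CPM and lost its call with the offsets (adjusted p = 0.0879). Nme3, a nucleoside diphosphate kinase, went from 6.1, 11 and 10.3 CPM to 2.59, 5.01 and 3.67 CPM and lost it too (adjusted p = 0.523). Hist2h2aa2, a histone gene, went from 241 counts to 0, but its near-identical copy Hist2h2aa1 held 1471 counts in each group, so the division of reads between the copies is uncertain. The same holds for the second Gcat gene, which went from 54 counts to 0 and overlaps Gcat, itself at 188 and 120 counts.

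With the offsets the falls also took in Slc7a8, Tm4sf4, Ube2s, Slc9a9, Cdh8 and Kcnb2. Slc7a8, a transporter of large neutral amino acids, was even across the controls, at 455, 456 and 450 CPM, and at 197, 373 and 231 CPM with IFNγ. Its change was -0.77 (adjusted p = 0.0878) without and -0.56 (adjusted p = 0.0469) with the offsets. Tm4sf4, a tetraspanin-like membrane protein, was at 245, 241 and 296 CPM against 162, 207 and 162 CPM (-0.79, adjusted p = 0.0305 with the offsets). Ube2s, a ubiquitin-conjugating enzyme of the anaphase-promoting complex, was at 30.1, 28.9 and 27.1 CPM against 14.3, 22 and 13.4 CPM (-0.85, adjusted p = 0.0338). In all 3 the groups did not overlap, as in 8.93% of all tested genes in the downward direction, and IFNγ 2 was the treated library closest to the controls. Cdh8 and Kcnb2 overlapped between the groups before the correction. Without IFNγ 2 and with the offsets, Slc7a8, Tm4sf4, Ube2s, Slc9a9 and Kcnb2 were called lower (adjusted p = 0.00572, 0.0012, 0.00151, 0.0475 and 0.0436), and none of the 6 falls found without a GC term was.

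Leaving out IFNγ 2 changed the picture far more when GC was ignored than when it was modelled. Of 18038 genes tested without that library, 1798 were higher (9.97%) and 1959 lower (10.9%). The rises lay mostly in the lowest GC bin, with 1374, 322, 73 and 26 genes from low to high GC, and the falls in the highest, with 2, 24, 355 and 1575. With the GC offsets the same libraries gave 196 rises (1.09%) and 38 falls (0.211%), spread as 37, 59, 53 and 47 rises and 3, 14, 11 and 10 falls. Of the 163 rises of the full set, 163 were among the 1798 and 142 among the 196. A core of 141 genes was called higher in the fit of all libraries, in that with the offsets and in that with the offsets without IFNγ 2.

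**Figure D5:**
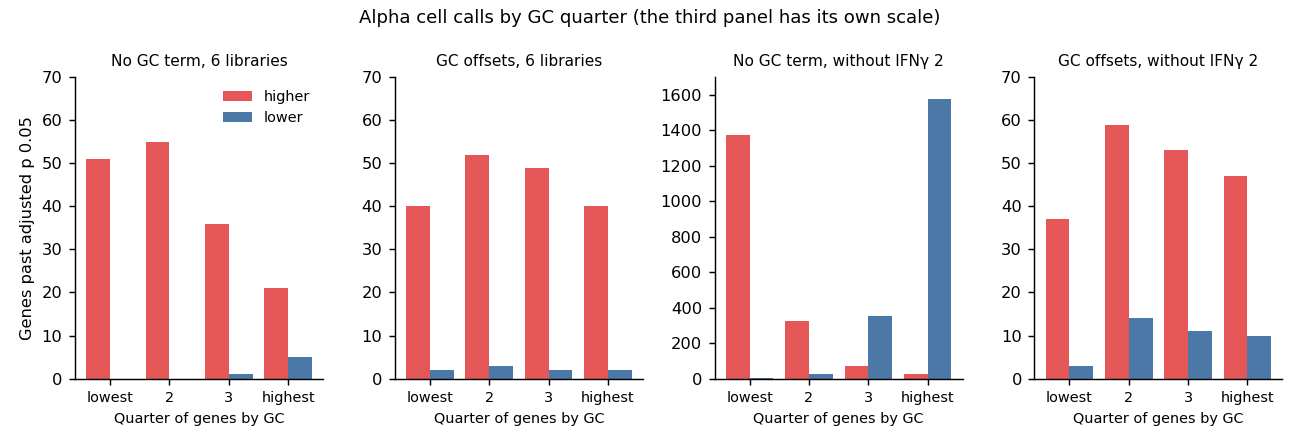
Number of genes past an adjusted p of 0.05 (y axis) in each of 4 equal bins of the genes by exonic GC content (x axis), higher with IFNγ in red and lower in blue, for 4 fits. Without a GC term and without IFNγ 2 the rises gather at 1374 in the lowest bin and the falls at 1575 in the highest, and with the offsets no bin exceeds 59.

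The genes that entered or left with the GC offsets differed in base composition. The 32 rises called only with the offsets had GC contents of 48.6% to 61.2% (median 53.7%), and the 14 called only without them 35.9% to 44.9% (median 39.7%). Among the former were Psmb10, Tap2 and Tapbpl of antigen presentation, Socs1, Ciita, Parp10, Adar, Oas1b, Oas3, Usp18, Apobec3, Ifi35, Wars and Trafd1, but also Hap1, Nbl1, Rab19, Rinl, Fbxw17 and Rmdn3. Tapbpl, a tapasin-related peptide editor, was at 23.5, 30 and 20.3 CPM against 31.6, 62.6 and 36 CPM (0.82, adjusted p = 0.112, against 1.13, adjusted p = 0.000208). Trafd1, which restrains innate immune signalling, was at 48.4, 41.1 and 59.7 CPM against 75.7, 120 and 66.7 CPM (0.81, adjusted p = 0.104, against 1.19, adjusted p = 0.000208). IFNγ 2 was the highest library for both. In 21 of the 32 the libraries of the groups did not overlap before the correction, beside 9.62% of all tested genes in the upward direction. The overlap and the call come from the same values, so the overlap is no separate evidence. When IFNγ 2 was left out, 23 of the 32 were also called with the offsets. The 14 that left included Brwd3, Vps13a and Wrn. Vps13a, a lipid transfer protein, was at 117, 103 and 98.7 CPM against 297, 137 and 244 CPM, and its change went from 1.09 (adjusted p = 0.0453) to 0.36 (adjusted p = 0.349). Trim12a, a member of the TRIM family of antiviral ligases, left as well (adjusted p = 0.29).

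Beside beta and delta cells treated in the same way, no gene's response in alpha cells passed a test of the difference. Beta cells had 183 rises (1.06%) and delta cells 209 (1.21%), and 125 of the 163 alpha cell rises were called in all 3 cell types. Of the 163, 129 (79.1%) were among the 183 of beta cells, of which they make up 70.5%, and 135 (82.8%) among the 209 of delta cells, of which they make up 64.6%. The cell types have their own controls, and all are in one fit with a shared estimate of the spread. Tests of the difference in response gave 0 genes (0%) for alpha against beta and 0 genes (0%) for alpha against delta cells in edgeR, with smallest adjusted p-values of 0.338 and 0.202. At an unadjusted p below 0.05 there were 2305 and 783 genes. DESeq2 gave 11 and 6, and limma-voom 0 and 1. With GC offsets the smallest adjusted p-values were 0.182 and 0.19.

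There were 24 rises called in alpha cells and in neither other cell type, among them Timp3, Atm, Ripk2, Serpinb9 and Ifitm3, and no test of the difference passed for any of the 24. With GC offsets 10 of the 24, among them Wrn, Brwd3 and Vps13a, lost the call in alpha cells, and the 5 named first kept it. Timp3, an inhibitor of metalloproteinases, was at 6.25, 4.01 and 4.17 CPM in alpha controls and at 123, 19.7 and 24.9 CPM with IFNγ (3.54, SE 0.55). IFNγ 1 carried most of that rise, though each treated library was above each control. The change of Timp3 was 0.17 in beta and 0.93 in delta cells, and its difference between alpha and beta cells was 3.37 (SE 0.85, adjusted p = 0.369). For B2m the changes were 6.03, 4.87 and 6.14 in alpha, beta and delta cells. For Irgm2 they were 3.64, 5.53 and 4.85, and its difference between alpha and beta cells had an adjusted p of 0.338, the smallest of that contrast.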

How the data were processed

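RNA-seq was measured in 18 libraries, of which the 6 of alpha cells are described. The authors made strand-specific libraries, depleted of ribosomal RNA, from 5 ng of RNA, sequenced paired ends, aligned the reads with STAR 2.5.2b and deposited RSEM expected counts and TPM per gene on GRCm38 (tool names per the labels and the methods). For RSEM, the version and strand setting were not given in the sources used here. FPKM values, which the authors deposited beside these, were not used. The study tested with DESeq2 1.32.0 with batch in the design.

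Expected counts, which are estimated counts as deposited, were rounded. All 18 libraries entered one edgeR 4.0.16 fit (R 4.3.3, limma 3.58.1) with a mean per group, TMM scaling and filterByExpr with a minimum count of 10, which left 17338 of 55487 genes. Quasi-likelihood F-tests were two-sided and adjusted by Benjamini-Hochberg over all tested genes, with a threshold of 0.05, and SEs belong to the log2 fold changes. Each SE was the size of its log2 fold change divided by the square root of the F statistic. The p-values treat the 3 libraries of a group as independent samples, and no pair of libraries agreed within sampling noise. GC content is the mean over annotated exonic bases (annotation matched for 99.53% of gene identifiers). GC offsets were lowess curves (span 0.3) per library over genes of at least 1 CPM. TPM, as deposited by the authors, was tested on log2(TPM + 0.5) with limma-trend over genes reaching a TPM of 1. Where a group held no count, 3 counts over the group stood as its limit, and intervals and limits cover counting error only. Depth was 8062219 to 10929016 expected counts per alpha library, and 89.6% to 91.4% of the deposited values were whole numbers.

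The genes named were the markers and targets the study names, the 8 largest rises and falls of at least 5 CPM without overlap, in each list up to 4 members with the smallest adjusted p (or, where none passed, the member of highest CPM), and likewise 8 rises and 8 falls called only with GC offsets. Others, among them H2-K1, H2-D1, Fbxl7, Recql4, Timp3, Tapbpl, Trafd1, Vps13a and Nos2, were named after their values were seen. The comparison and the lists were chosen with earlier results of these data known. The procedure was tested on simulated data. Some results are not reported here. Promoter windows come from RefSeq (GRCm38.p6). Alternatives were DESeq2 1.42.0, limma-voom, RLE size factors, other filters, GC terms, blocks by replicate number or by the date each deposited library carries, alpha libraries alone and each library left out.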

Additional observations from a re-analysis of the deposited data

How the results depend on the processing

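The 163 rises stayed within 1.5 times that number with GC offsets (181), the GC balance as a covariate (133), RLE size factors (162), limma-voom (147), a stricter filter (159), the date as a term (162) and alpha libraries alone (123). They were 393 with DESeq2, 990 with no filter on low counts and 96 with TPM, whose median change over all genes was -0.21. Leaving out 1 library gave 137 to 1798 rises, and 137 to 179 as long as alpha IFNγ 2 was kept. The 6 falls were less settled. They were 149 with DESeq2, 23 with limma-voom, 446 with no filter, 16 in the alpha libraries of the 2 shared dates, 3 in the alpha libraries alone, 3 in those with GC offsets and 1 with the GC balance as a covariate. Leaving out 1 library gave 0 (without alpha IFNγ 1) to 1959 falls (without alpha IFNγ 2), with 3 without alpha control 2, 11 without delta IFNγ 3 and 13 without delta control 3. Leaving out an alpha library under GC offsets gave 149 to 196 rises and 0 to 38 falls, with 10 falls without alpha IFNγ 3. DESeq2 without alpha IFNγ 2, added after the data were seen, gave 2262 rises and 2439 falls. The causes of these shifts were not tested beyond the GC split given above.

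The labels do not state how the control and IFNγ cultures were paired. Same-numbered control and IFNγ libraries deviated with r = 0.09, 0.05 and -0.19, and pairs of one date with r = -0.09 and 0.22. These values cannot settle the pairing, since both ways of pairing gave small values of either sign. With the replicate number as a block there were 171 rises, 158 of them among the 163, and 14 falls, and with the block and GC offsets 177 and 8.

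The difference in response between alpha and beta cells, with no gene called, gave 11 with DESeq2, 539 with no filter and 1 with the date as a term. Leaving out 1 library gave 0 to 1375, the highest without alpha IFNγ 2, and 2 under GC offsets without alpha control 2. For alpha against delta cells the counts were 6, 106 and 19, with 1 in limma-voom, 0 to 3 on leaving out 1 library and 2 under GC offsets without alpha IFNγ 2. Of 75 called genes among the 120 named by rule, 53 kept their call in all 39 alternatives, 22 lost it at least once, and none changed direction. Depth limits the genes with few counts, and 3 libraries a group give an SE of 0.34 at the median gene.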
